A study of Mus musculus with 46 samples.

Results

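GSK2033, a synthetic antagonist of the liver X receptors (LXR), was given together with the oxysterol 27-hydroxycholesterol (27HC) to bone marrow-derived macrophages of mice, and the cells' polyadenylated RNA was set against that of macrophages given 27HC alone. The comparison was defined by the sample names in the deposited table, and took 10 of the 46 libraries: 5 labelled GSK2033 + 27HC and 5 labelled 27HC. Further groups were used to place it: GSK2033 without 27HC (n = 5) against Vehicle (n = 6), and ICI + 27HC (n = 5), where ICI is the estrogen receptor antagonist fulvestrant. All groups were macrophages grown in culture from bone marrow, and no allele, transgene, age or strain was used to define a group. No dose or exposure time is given for any group. Nothing states that the 5 libraries of a treatment are separate mice or dishes, and the p-values then reflect only the spread among these libraries, possibly a technical one.

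The LXR proteins, encoded by Nr1h3 and Nr1h2, are nuclear receptors that pair with retinoid X receptors (RXR) on DNA. When oxysterols bind them they switch on genes that move cholesterol out of the macrophage, remodel phospholipids and make fatty acids, and they can also hold back inflammatory genes. Oxysterols also act by keeping the transcription factor SREBP2 in the endoplasmic reticulum, which lowers the genes of cholesterol synthesis. 27HC binds both LXR and the estrogen receptors.

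Total estimated counts ran from 21598974 to 26567785 with GSK2033 + 27HC and from 21218216 to 23755687 with 27HC. Levels below are CPM, counts scaled to a common library total after TMM scaling, given as mean ± SD over libraries, and they are not compared between genes because they are not divided by length. Log2 fold changes are those of GSK2033 + 27HC over 27HC unless another pair is named, with their standard error. Each adjusted p comes from the quasi-likelihood test of edgeR, corrected by Benjamini-Hochberg over all 13838 genes tested, and "rose" and "fell" are used of genes with an adjusted p under 0.05, also where a gene's p is not printed. Unless overlap is stated, the 5 libraries of each group did not overlap for a gene said to have risen or fallen. In bulk RNA, fewer cells of a type and less RNA per cell cannot be told apart. The cells carried the macrophage label's markers, and all 14 macrophage genes were tested. Adgre1 (the F4/80 antigen) stood at 2225 ± 106 CPM with GSK2033 + 27HC and 2037 ± 42.7 CPM with 27HC. Of these 14, Adgre1 alone rose, with overlapping groups, while 12 fell. Their summed level was 16203 ± 699 CPM with GSK2033 + 27HC and 20099 ± 555 CPM with 27HC.

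GSK2033 in the presence of 27HC changed a large share of the transcriptome. Of 13838 genes, 5921 (42.8%) passed the test, of which 2923 (21.1% of those tested) rose and 2998 (21.7%) fell. A change of at least 2-fold was found for 320 genes that rose (2.31%) and 254 that fell (1.84%). For 4278 genes (30.9%) the groups did not overlap. The median log2 fold change over all genes tested was 0.005. Counts of list members below are read against these shares. Members of 25 pathway lists are given by role, and the lists and their members were chosen with earlier results of these data known.

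**Figure D1:**
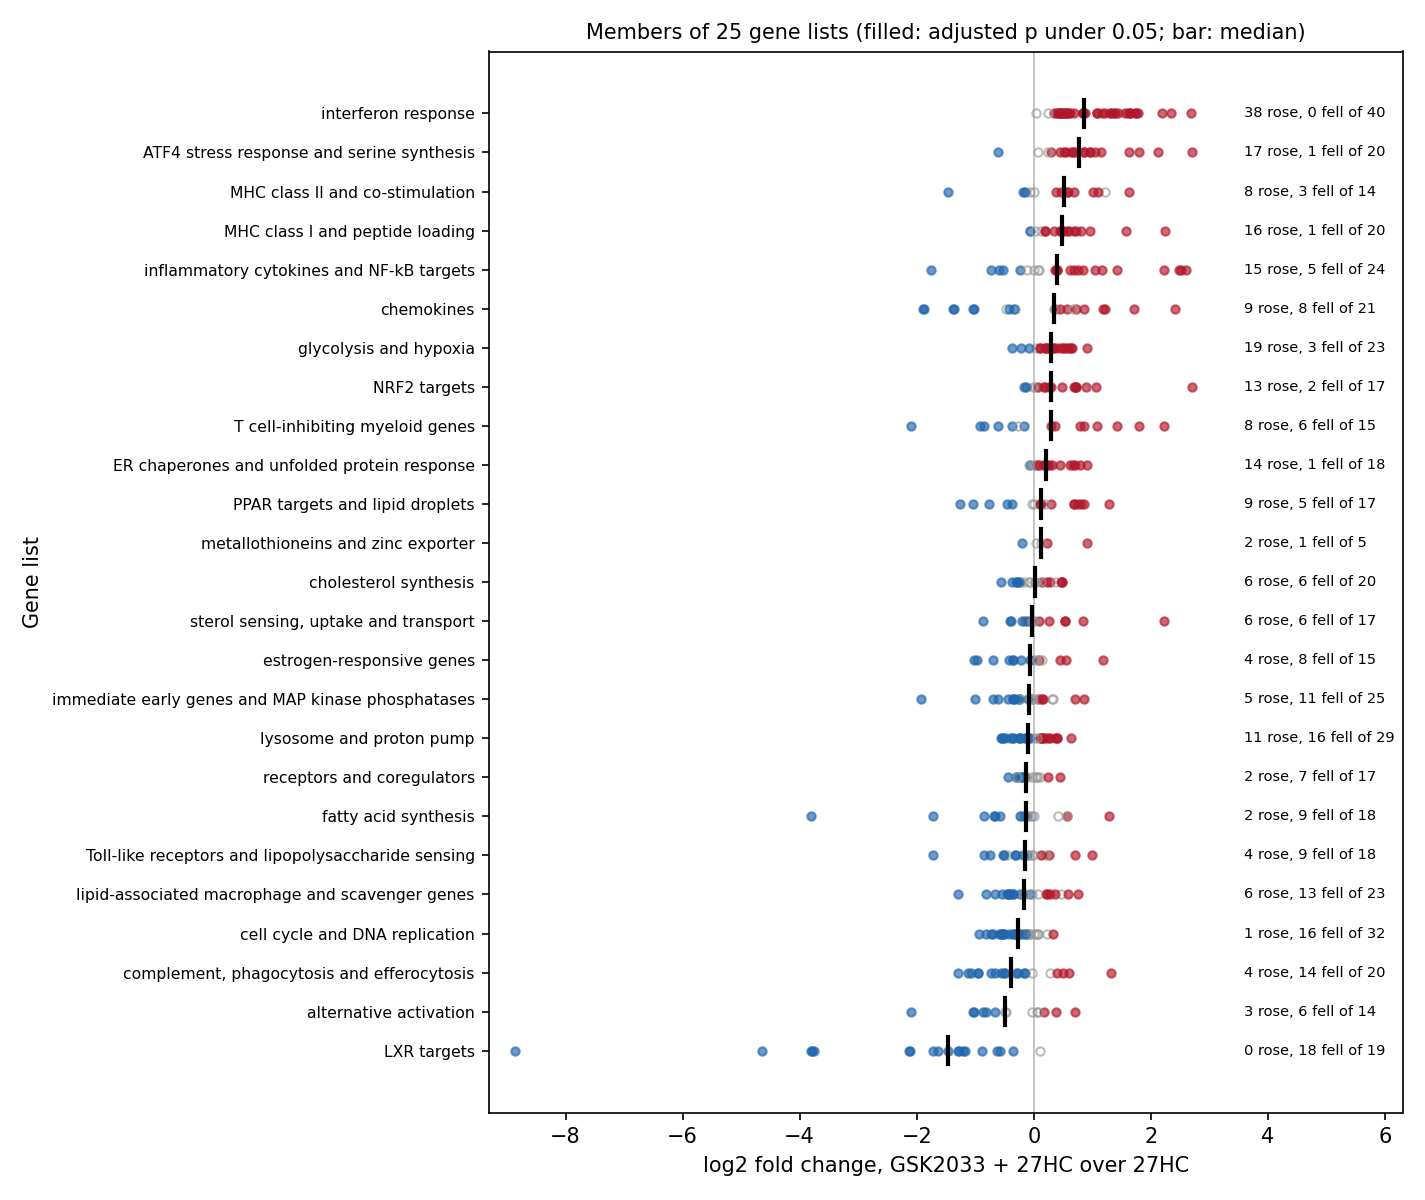
Log2 fold change of GSK2033 + 27HC over 27HC (x axis) for the tested members of 25 gene lists (y axis), with 1 point per gene, filled where the adjusted p was under 0.05 (red where it rose, blue where it fell), and a black bar at the list's median. LXR targets lie lowest, with 18 of 19 fallen, and the interferon list lies highest, with 38 of 40 risen.

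The genes that LXR is known to activate had the lowest median of the lists. Of 20 LXR targets 19 had enough counts to be tested, 18 fell and 0 rose, beside 21.7% of all genes falling, and their median log2 fold change was -1.47. Their summed level was 6280 ± 317 CPM with GSK2033 + 27HC and 14287 ± 409.8 CPM with 27HC. It was 6486 ± 298 CPM with GSK2033 alone and 9918 ± 477 CPM with Vehicle.

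Abcg1 (ENSMUSG00000024030, chr17:31057675-31117988, plus strand), a transporter that passes cholesterol to lipoprotein particles, had 0.715, 0.583, 0.966, 0.657 and 0.765 CPM in the 5 libraries with GSK2033 + 27HC, against 365, 338, 331, 352 and 327 CPM with 27HC. Each of the 5 libraries with GSK2033 + 27HC held only 15 to 23 estimated counts of it, against 7060 to 8683 with 27HC, so the groups lay far apart. The log2 fold change was -8.86 ± 0.12 (95% interval -9.11 to -8.61, adjusted p = 1.57e-41), or 464-fold lower. Abca1 (ENSMUSG00000015243, chr4:53030787-53159895, minus strand), which loads cholesterol onto apolipoprotein A-I, had 39.9, 41.7, 38.9, 41.1 and 34.9 CPM with GSK2033 + 27HC, against 979, 1046, 904, 955 and 1057 CPM with 27HC. It was 25.1-fold lower (log2 fold change -4.65 ± 0.078, adjusted p = 2.38e-38), with no overlap. Eepd1, which in macrophages takes part in cholesterol efflux, had 2.903, 2.95, 2.56, 2.34 and 3.06 CPM with GSK2033 + 27HC, against 36.8, 37.9, 36.4, 37.4 and 36.4 CPM with 27HC (log2 fold change -3.75 ± 0.064, adjusted p = 3.09e-39). The small GTPase gene Arl4c, another known LXR target, averaged 94.2 ± 1.22 CPM with GSK2033 + 27HC and 408 ± 9.68 CPM with 27HC (log2 fold change -2.12 ± 0.022, adjusted p = 3.6e-47). All of these efflux-related genes were also below the Vehicle level of 41.2 ± 7.25 CPM for Abcg1, 394 ± 32.7 CPM for Abca1, 13.9 ± 1.02 CPM for Eepd1 and 242 ± 6.26 CPM for Arl4c.

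Mylip (ENSMUSG00000038175, chr13:45389742-45412022, plus strand), a ubiquitin ligase also called IDOL, had 9.299, 10.1, 8.53, 8.54 and 9.04 CPM with GSK2033 + 27HC, against 131, 126, 122, 123 and 125 CPM with 27HC. Every library with GSK2033 + 27HC was more than 10-fold below every library with 27HC (log2 fold change -3.78 ± 0.043, adjusted p = 3.06e-46). Among enzymes that shape fatty acids and membranes, Scd2 (ENSMUSG00000025203, chr19:44293674-44306864, plus strand), a stearoyl-CoA desaturase, had 11.7, 11.1, 11.1, 12.6 and 13.1 CPM with GSK2033 + 27HC, against 156, 174, 170.2, 162 and 176 CPM with 27HC (log2 fold change -3.81 ± 0.05, adjusted p = 1.28e-43). Its relative Scd1 averaged 3.12 ± 0.332 CPM with GSK2033 + 27HC and 10.3 ± 1.11 CPM with 27HC (log2 fold change -1.72 ± 0.099, adjusted p = 2.03e-19). Lpcat3, which places polyunsaturated chains into phospholipids, averaged 25.9 ± 0.611 CPM with GSK2033 + 27HC and 71.6 ± 3.22 CPM with 27HC (log2 fold change -1.47 ± 0.037, adjusted p = 1.77e-32). Srebf1, the transcription factor of fatty acid synthesis, fell less, to 53.6 ± 5.83 CPM with GSK2033 + 27HC against 79.4 ± 4.24 CPM with 27HC (log2 fold change -0.57 ± 0.051, adjusted p = 6.2e-13).

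Secreted and lipoprotein-handling targets fell as well. Lpl, lipoprotein lipase, had 892, 930.2, 845, 831 and 848 CPM with GSK2033 + 27HC, against 3859, 3550, 3768, 3975 and 3930 CPM with 27HC, a 4.39-fold lower level (log2 fold change -2.13 ± 0.05, adjusted p = 3.21e-33). Pltp, the phospholipid transfer protein, averaged 230.2 ± 17.9 CPM with GSK2033 + 27HC and 556 ± 20.8 CPM with 27HC (log2 fold change -1.27 ± 0.035, adjusted p = 3.79e-31). Apoe, an apolipoprotein that macrophages secrete, averaged 4389 ± 308 CPM with GSK2033 + 27HC and 6797 ± 352 CPM with 27HC (log2 fold change -0.63 ± 0.057, adjusted p = 1.14e-12). Its neighbour Apoc2, the cofactor of lipoprotein lipase, stood low in both groups at 1.696 ± 0.798 CPM with GSK2033 + 27HC and 5.26 ± 1.53 CPM with 27HC (log2 fold change -1.63 ± 0.38, adjusted p = 0.000402). Apoc1 passed the test narrowly at 0.146 ± 0.0453 CPM with GSK2033 + 27HC and 0.337 ± 0.0778 CPM with 27HC (adjusted p = 0.0279), and the call was lost when some single libraries were left out. Apoc4, with 0 to 4 counts with GSK2033 + 27HC and 0 to 5 with 27HC, was not tested.

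The remaining targets included genes of cell clearance and survival. Mertk, a receptor for dying cells, averaged 36.9 ± 2.04 CPM with GSK2033 + 27HC and 90.1 ± 3.85 CPM with 27HC (log2 fold change -1.29 ± 0.048, adjusted p = 2.46e-26). Tgm2, a transglutaminase, averaged 115 ± 1.404 CPM with GSK2033 + 27HC and 266 ± 8.34 CPM with 27HC (log2 fold change -1.21 ± 0.03, adjusted p = 8.69e-33). Cd5l, an inhibitor of macrophage apoptosis, averaged 64 ± 3.18 CPM with GSK2033 + 27HC and 118 ± 5.45 CPM with 27HC (log2 fold change -0.89 ± 0.049, adjusted p = 3.96e-20). Smpdl3a, a phosphodiesterase, had the smallest fall of the list, with 283 ± 6.16 CPM with GSK2033 + 27HC and 359.9 ± 8.77 CPM with 27HC (log2 fold change -0.35 ± 0.026, adjusted p = 9.84e-16). The exception was Nr1h3, which encodes LXR alpha and is itself listed as a target. It stood at 50.1 ± 1.03 CPM with GSK2033 + 27HC and 46.7 ± 2.76 CPM with 27HC, with overlapping groups (log2 fold change 0.102 ± 0.064, adjusted p = 0.205, 95% interval -0.03 to 0.23).

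**Figure D2:**
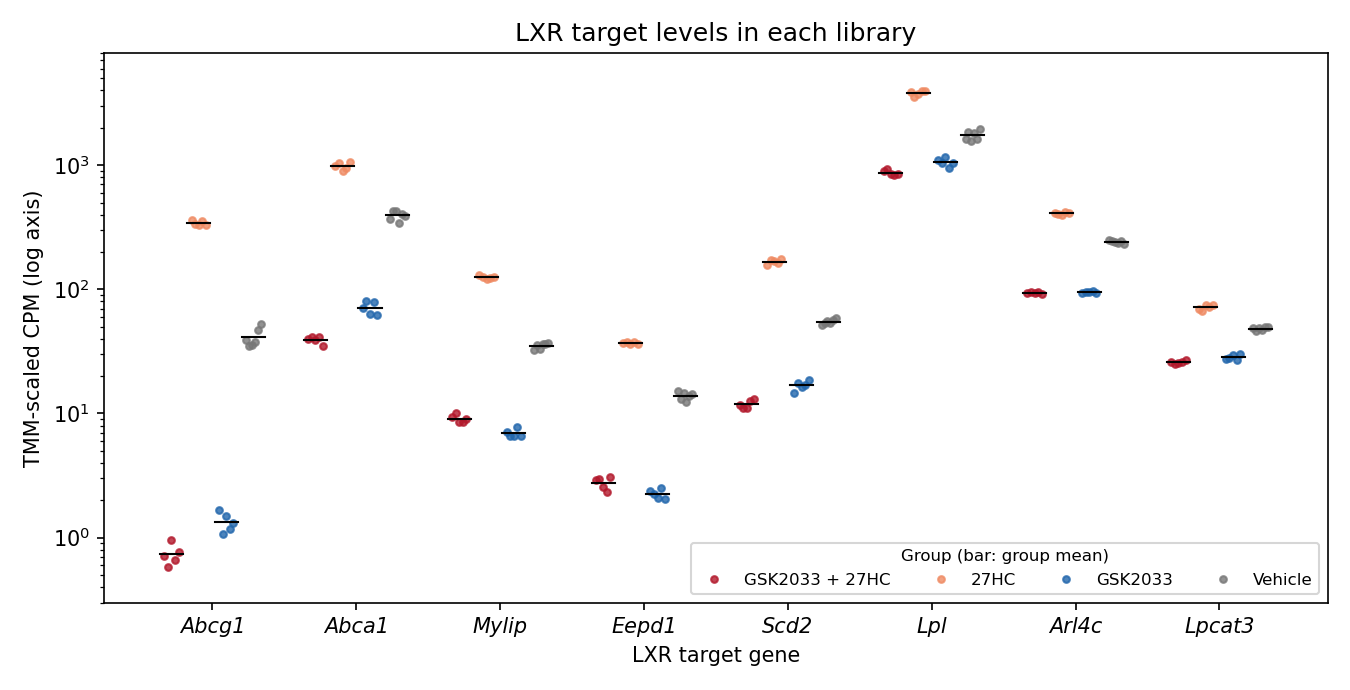
TMM-scaled CPM (log axis) of 8 LXR targets in each library, by group, with a bar at the group mean. With GSK2033 + 27HC every library lies below every library with 27HC and with Vehicle for each of the 8 genes, from Abcg1 at 0.583 to 0.966 CPM to Lpl at 831 to 930.2 CPM.

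Receptor genes moved far less than their targets. Nr1h2, LXR beta, averaged 82.9 ± 3.53 CPM with GSK2033 + 27HC and 79.7 ± 2.65 CPM with 27HC, with overlapping groups (log2 fold change 0.06 ± 0.038, adjusted p = 0.236, 95% interval -0.02 to 0.13). The RXR genes fell slightly. Rxra fell to 114 ± 1.07 CPM with GSK2033 + 27HC against 126 ± 3.06 CPM with 27HC (log2 fold change -0.15 ± 0.028, adjusted p = 1.82e-05), and Rxrb had a log2 fold change of -0.29 ± 0.035. Of 17 tested receptors and coregulators, 2 rose and 7 fell, with a median log2 fold change of -0.13. The coactivator gene Ncoa3 fell (log2 fold change -0.44 ± 0.058, adjusted p = 1.45e-08), as did Tbl1x of the corepressor complex (log2 fold change -0.299 ± 0.046, adjusted p = 4.18e-07). The coactivator gene Ncoa6 rose with overlapping groups (log2 fold change 0.25 ± 0.097, adjusted p = 0.0364), a call that was lost when some single libraries were left out. Esr1, estrogen receptor alpha, rose too, at 5.07 ± 0.681 CPM with GSK2033 + 27HC and 3.74 ± 0.327 CPM with 27HC (log2 fold change 0.44 ± 0.11, adjusted p = 0.00102). Esr2, with 0 to 4 counts with GSK2033 + 27HC and 0 to 6 with 27HC, was not tested.

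Fatty acid synthesis genes fell in part. Of 18 tested members 9 fell and 2 rose, with a median of -0.14; Srebf1, Scd1 and Scd2 are also LXR targets. Elovl5, an enzyme that lengthens polyunsaturated fatty acids, averaged 57.95 ± 0.984 CPM with GSK2033 + 27HC and 91.9 ± 2.61 CPM with 27HC (log2 fold change -0.66 ± 0.035, adjusted p = 6.14e-21). Those that rose were Acss2 and Me1. Acss2, which makes acetyl-CoA from acetate, averaged 8.81 ± 0.514 CPM with GSK2033 + 27HC and 3.61 ± 1.005 CPM with 27HC (log2 fold change 1.29 ± 0.13, adjusted p = 2.71e-11). Me1, malic enzyme, averaged 51.02 ± 2.07 CPM with GSK2033 + 27HC and 34.4 ± 2.08 CPM with 27HC (log2 fold change 0.57 ± 0.059, adjusted p = 4.71e-11). The summed level of the list was 733 ± 10.03 CPM with GSK2033 + 27HC and 1007 ± 12.5 CPM with 27HC.

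Genes of cholesterol synthesis, by contrast, stood at about the same low level in both groups. Of 20 members 6 rose and 6 fell, with a median log2 fold change of 0.02, and the summed level was 365 ± 6.37 CPM with GSK2033 + 27HC and 362 ± 16.5 CPM with 27HC. With GSK2033 alone it was 403 ± 12.8 CPM, and with Vehicle 778 ± 21.7 CPM. Sc5d, Mvd and Fdft1, enzymes of late, early and middle steps of the pathway, rose, each by a log2 fold change of 0.46 ± 0.065, 0.48 ± 0.076 and 0.48 ± 0.081. Fdft1, squalene synthase, averaged 11.4 ± 0.757 CPM with GSK2033 + 27HC and 8.17 ± 0.934 CPM with 27HC and 27.9 ± 1.895 CPM with Vehicle. Msmo1, a sterol oxidase, fell, averaging 41.3 ± 2.39 CPM with GSK2033 + 27HC and 49.9 ± 1.87 CPM with 27HC (log2 fold change -0.27 ± 0.051, adjusted p = 1.67e-05). So did Idi1, which interconverts the isoprenoid building blocks (log2 fold change -0.29 ± 0.063, adjusted p = 0.000225). Sqle, squalene epoxidase, rose with overlapping groups, with 13.2, 13.7, 17.4, 14.3 and 15.1 CPM in libraries with GSK2033 + 27HC and 12.8, 12.3, 13.7, 12.2 and 11.8 CPM with 27HC (log2 fold change 0.23 ± 0.056, adjusted p = 0.000777).

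In sterol sensing, uptake and transport, 6 of 17 tested genes rose and 6 fell, with a median of -0.03. Insig1, which holds SREBP in the endoplasmic reticulum and is itself an SREBP target, averaged 31.3 ± 1.25 CPM with GSK2033 + 27HC and 21.5 ± 0.739 CPM with 27HC (log2 fold change 0.54 ± 0.038, adjusted p = 2.17e-16). Enzymes that free cholesterol from its esters fell. Lipa, lysosomal acid lipase, averaged 1642 ± 59.8 CPM with GSK2033 + 27HC and 2176 ± 69.2 CPM with 27HC (log2 fold change -0.41 ± 0.027, adjusted p = 3.43e-17). Nceh1, neutral cholesterol ester hydrolase, averaged 526 ± 21.7 CPM with GSK2033 + 27HC and 693 ± 15.3 CPM with 27HC (log2 fold change -0.396 ± 0.028, adjusted p = 3.52e-16).

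**Figure D3:**
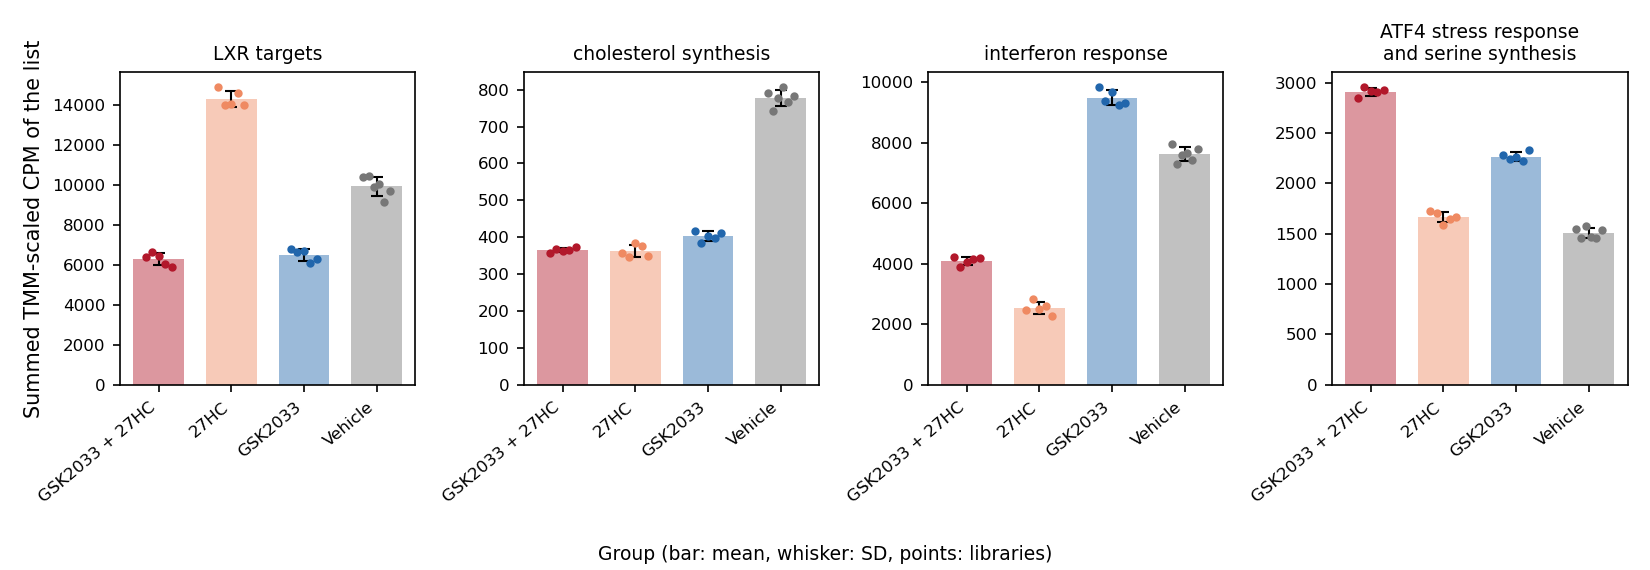
Summed TMM-scaled CPM of 4 gene lists in the GSK2033 + 27HC, 27HC, GSK2033 and Vehicle libraries (bars: group means from 0, whiskers: SD, points: libraries). GSK2033 + 27HC lies below 27HC for LXR targets, above it for the interferon list and the ATF4 list, and within its range for cholesterol synthesis.

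Interferon-stimulated genes rose together. These genes are switched on by type I interferon through complexes of transcription factors that bind a short element in their promoters, and many encode antiviral proteins. All 40 members were tested, 38 rose and 0 fell, beside 21.1% of all genes rising, and the median log2 fold change was 0.86. The 2 members that did not pass, named after their values were seen, were Irf9 (log2 fold change 0.05, adjusted p = 0.269) and Mx2 (0.24, adjusted p = 0.512). The summed level was 4103 ± 135 CPM with GSK2033 + 27HC and 2533 ± 207 CPM with 27HC, and both lay below the 9496 ± 255 CPM with GSK2033 alone and the 7627 ± 236 CPM with Vehicle.

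Promoter sequences are shown for 3 of the 4 list members with the smallest p, Ifit1, Isg15 and Rsad2, whose promoters hold the core of the interferon-stimulated response element. The sequences are the 250 bases before the transcription start in RefSeq's annotation of GRCm38.p6, written 5′ to 3′ along the gene, with capitals on each match to GAAA, any 2 bases, GAAA on either strand. Ifit1 lies on the plus strand at chr19:34640639-34640888, Isg15 on the minus strand at chr4:156200819-156201068 and Rsad2 on the minus strand at chr12:26456453-26456702.
Ifit1: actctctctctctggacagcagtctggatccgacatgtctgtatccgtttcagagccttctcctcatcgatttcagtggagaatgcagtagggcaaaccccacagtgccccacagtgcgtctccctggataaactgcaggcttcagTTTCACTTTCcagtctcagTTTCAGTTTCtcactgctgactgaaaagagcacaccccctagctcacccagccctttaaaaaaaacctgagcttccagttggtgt
Isg15: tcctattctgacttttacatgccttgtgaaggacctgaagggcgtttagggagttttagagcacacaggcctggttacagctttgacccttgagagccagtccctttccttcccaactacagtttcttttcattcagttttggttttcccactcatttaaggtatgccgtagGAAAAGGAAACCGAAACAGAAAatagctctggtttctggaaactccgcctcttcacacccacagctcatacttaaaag
Rsad2: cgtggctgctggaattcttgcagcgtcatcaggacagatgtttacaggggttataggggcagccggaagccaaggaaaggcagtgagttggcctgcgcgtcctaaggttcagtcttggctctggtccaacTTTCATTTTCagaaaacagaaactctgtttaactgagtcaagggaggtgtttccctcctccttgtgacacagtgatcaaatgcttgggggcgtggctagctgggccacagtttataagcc
Ifit1 held 2 matches, whose first bases lie 104 and 85 bases before the start, both on the opposite strand. Isg15 held 3 overlapping matches on the gene's own strand, beginning 78, 72 and 66 bases before the start, and Rsad2 held 1 on the opposite strand, 120 bases before it. In windows from 250 bases before to 50 after the start, 17 of the 29 list genes with a RefSeq promoter (58.6%) held the element, against 3.99% of all 27025 genes. Genes of this list are known in part for carrying the element, so the share describes the list. The LXR element of direct repeats (AGGTCA, any 4 bases, AGGTCA, with up to 1 mismatch in each AGGTCA) was found for 0 of 13 LXR targets with a promoter and 2.02% of all genes in the same windows. With 13 genes and a share this low, 0 matches cannot tell these targets from other genes. Targets without a RefSeq promoter, Abcg1 among them, and sequence outside these windows were not searched. A sterol regulatory element (TCACCCCAC) was found for 1 of 15 cholesterol synthesis genes, Hmgcs1, and 0.614% of all genes.

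Ifit1 (ENSMUSG00000034459, chr19:34640871-34650009, plus strand), which binds viral RNA, had 76.4, 70.3, 75.9, 71.7 and 74.4 CPM with GSK2033 + 27HC, against 18.1, 26.2, 22.3, 23.02 and 17.5 CPM with 27HC. The lowest library with GSK2033 + 27HC was well above the highest with 27HC (log2 fold change 1.78 ± 0.067, adjusted p = 7.41e-26). Isg15, a ubiquitin-like protein, had 101, 85.2, 91.8, 93.01 and 97.97 CPM with GSK2033 + 27HC, against 31.2, 33.6, 30.1, 30.8 and 23.8 CPM with 27HC (log2 fold change 1.65 ± 0.066, adjusted p = 8.1e-25). Rsad2, the antiviral enzyme viperin, had 75.9, 70.8, 77.4, 76.2 and 82.6 CPM with GSK2033 + 27HC, against 26.9, 30.6, 28.9, 30.99 and 24.4 CPM with 27HC (log2 fold change 1.43 ± 0.055, adjusted p = 1.29e-25). The groups did not overlap for any of the 3. Phf11d averaged 35.4 ± 2.43 CPM with GSK2033 + 27HC and 13.5 ± 1.15 CPM with 27HC (log2 fold change 1.39 ± 0.058, adjusted p = 1.97e-24). Slfn1, a schlafen gene, was among the 10 highest fold changes of the comparison at 3.09 ± 0.347 CPM with GSK2033 + 27HC and 0.477 ± 0.188 CPM with 27HC (log2 fold change 2.69 ± 0.14, adjusted p = 5.6e-21). With Vehicle it stood at 10.4 ± 0.552 CPM.

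Genes of antigen presentation by MHC class I rose, 16 of 20 against 1 that fell, with a median of 0.49. H2-Q7, a class I gene of the Qa-2 antigen, had 57.6, 54.6, 56.6, 55.2 and 55.1 CPM with GSK2033 + 27HC, against 11.6, 13.1, 10.6, 12.98 and 11.2 CPM with 27HC (log2 fold change 2.23 ± 0.063, adjusted p = 9.43e-31), and H2-Q4 averaged 141 ± 7.11 CPM with GSK2033 + 27HC and 47.3 ± 3.56 CPM with 27HC (log2 fold change 1.58 ± 0.049, adjusted p = 3.15e-29). The H2-Q genes are near-identical copies, so how the counting split reads between them is uncertain. The classical gene H2-K1 averaged 2380 ± 23.3 CPM with GSK2033 + 27HC and 1449 ± 52.01 CPM with 27HC (log2 fold change 0.72 ± 0.032, adjusted p = 2.49e-23). H2-T22 averaged 151 ± 8.13 CPM with GSK2033 + 27HC and 77.6 ± 4.81 CPM with 27HC (log2 fold change 0.96 ± 0.046, adjusted p = 4.19e-22). The member that fell, Calr (calreticulin, a chaperone of peptide loading), did so by 0.07 with overlapping groups (log2 fold change -0.07 ± 0.022, adjusted p = 0.0115), a call that was lost when some single libraries were left out.

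In the list of MHC class II and co-stimulation 8 of 14 genes rose and 3 fell, with a median of 0.52. Cd40, a receptor by which T cells activate antigen-presenting cells, had 30.1, 26.5, 27.5, 27.8 and 28.4 CPM with GSK2033 + 27HC, against 13.98, 14.4, 12.6, 11.9 and 12.7 CPM with 27HC (log2 fold change 1.097 ± 0.085, adjusted p = 4.38e-15). The co-stimulatory ligand gene Cd86 averaged 25.9 ± 0.971 CPM with GSK2033 + 27HC and 12.8 ± 0.636 CPM with 27HC (log2 fold change 1.01 ± 0.071, adjusted p = 2.27e-16). The class II chains H2-Aa and H2-Ab1 averaged 36.5 ± 1.82 and 47.4 ± 0.471 CPM with GSK2033 + 27HC, against 22.7 ± 1.89 and 32.02 ± 1.74 CPM with 27HC. Those that fell serve the processing of class II peptides. They were H2-DMb2 (log2 fold change -1.47 ± 0.22, adjusted p = 1.94e-07) and Ctss, the protease cathepsin S (log2 fold change -0.16 ± 0.028, adjusted p = 7.24e-06). H2-DMa fell with overlapping groups (log2 fold change -0.19 ± 0.062, adjusted p = 0.0101).

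Inflammatory cytokines and NF-kB targets were mixed. Of 24 tested 15 rose and 5 fell, with a median of 0.40. Lcn2, lipocalin 2, which binds bacterial siderophores, rose 6.05-fold, with 31.4, 31.2, 31.6, 28.1 and 27.98 CPM with GSK2033 + 27HC and 4.58, 6.64, 5.43, 5.73 and 2.41 CPM with 27HC. Ptgs2, cyclooxygenase 2, averaged 63.05 ± 3.62 CPM with GSK2033 + 27HC and 23.6 ± 2.23 CPM with 27HC (log2 fold change 1.42 ± 0.068, adjusted p = 3.15e-22). The adhesion molecule gene Icam1 averaged 208 ± 6.47 CPM with GSK2033 + 27HC and 101 ± 3.68 CPM with 27HC (log2 fold change 1.04 ± 0.045, adjusted p = 8.95e-24). Sod2, mitochondrial superoxide dismutase, averaged 604 ± 14.3 CPM with GSK2033 + 27HC and 269 ± 8.25 CPM with 27HC (log2 fold change 1.17 ± 0.066, adjusted p = 2.95e-19). The interleukin genes Il1a and Il1b went the other way. Il1a averaged 1.88 ± 0.599 CPM with GSK2033 + 27HC and 6.34 ± 0.977 CPM with 27HC (log2 fold change -1.75 ± 0.21, adjusted p = 1.15e-09). Il1b averaged 19.4 ± 2.72 CPM with GSK2033 + 27HC and 27.8 ± 5.49 CPM with 27HC with overlapping groups (log2 fold change -0.52 ± 0.18, adjusted p = 0.0186). Rel, an NF-kB subunit, fell (log2 fold change -0.59 ± 0.052, adjusted p = 2.99e-13). Saa3, a serum amyloid A gene, and Nfkbiz fell with overlapping groups (-0.73 ± 0.16 and -0.23 ± 0.087 on the log2 scale, adjusted p = 0.000183 and 0.0279). The calls of H2-DMa, Il1b and Nfkbiz were lost when some single libraries were left out.

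Chemokine genes split, with 9 of 21 rising and 8 falling. Ccl3, which attracts monocytes, had 189.5, 184, 181, 176 and 177 CPM with GSK2033 + 27HC, against 56.01, 56.8, 54.6, 58.6 and 50.5 CPM with 27HC (log2 fold change 1.71 ± 0.079, adjusted p = 1.77e-22). Cxcl14, Pf4 and Ccl9 had the smallest p among those that fell. Cxcl14 averaged 14.1 ± 1.03 CPM with GSK2033 + 27HC and 51.5 ± 3.303 CPM with 27HC (log2 fold change -1.88 ± 0.05, adjusted p = 1.31e-31). Pf4, platelet factor 4, averaged 263 ± 9.67 CPM with GSK2033 + 27HC and 675 ± 39.3 CPM with 27HC (log2 fold change -1.36 ± 0.041, adjusted p = 1.61e-29). Ccl9 averaged 302 ± 10.6 CPM with GSK2033 + 27HC and 784 ± 27.9 CPM with 27HC (log2 fold change -1.38 ± 0.053, adjusted p = 1.36e-25). The summed chemokine level was 1715 ± 26.98 CPM with GSK2033 + 27HC and 2523 ± 103 CPM with 27HC, so it was lower although the list's median of 0.34 was above 0.

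Of 18 Toll-like receptor and lipopolysaccharide-sensing genes 4 rose and 9 fell, with a median of -0.15. Tlr2, a receptor for bacterial lipoproteins, rose to 481 ± 14.7 CPM with GSK2033 + 27HC, against 241 ± 4.23 CPM with 27HC (log2 fold change 0.997 ± 0.049, adjusted p = 8.74e-22). The adaptor genes Ticam2 and Myd88 and the RNA receptor gene Tlr3 rose as well, with log2 fold changes of 0.696 ± 0.061, 0.13 ± 0.03 and 0.25 ± 0.074. Tlr8 and Tlr13, receptors for RNA in endosomes, fell. Tlr8 fell to 61.4 ± 3.28 CPM with GSK2033 + 27HC against 111 ± 3.89 CPM with 27HC (log2 fold change -0.86 ± 0.063, adjusted p = 1.28e-15), and Tlr13 had a log2 fold change of -0.52 ± 0.035.

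Genes of the ATF4 stress response, which cells use to take up and make amino acids under stress, formed the list with the second highest median. Of 20 members 17 rose and 1 fell, and the median log2 fold change was 0.78. Slc7a11 (ENSMUSG00000027737, chr3:49892526-50443614, minus strand), the cystine importer, had 260.0, 282, 287, 284 and 295 CPM with GSK2033 + 27HC, against 42.4, 49.2, 42.6, 41.6 and 40.6 CPM with 27HC (log2 fold change 2.704 ± 0.082, adjusted p = 3.59e-29). Trib3, a pseudokinase induced by ATF4, had 66.9, 69.2, 70.5, 71.1 and 69.2 CPM with GSK2033 + 27HC, against 15.8, 15.8, 16.7, 15.2 and 15.8 CPM with 27HC (log2 fold change 2.13 ± 0.052, adjusted p = 3.21e-33). Both genes were several times higher in every library with GSK2033 + 27HC. Atf4 itself averaged 312 ± 8.04 CPM with GSK2033 + 27HC and 152 ± 1.31 CPM with 27HC (log2 fold change 1.04 ± 0.028, adjusted p = 1.39e-31). Ddit3, the transcription factor CHOP, averaged 55.3 ± 3.18 CPM with GSK2033 + 27HC and 17.9 ± 1.11 CPM with 27HC (log2 fold change 1.63 ± 0.053, adjusted p = 1.86e-28). The member that fell was Atf3, a transcription factor that is also an immediate early gene, at 114 ± 7.81 CPM with GSK2033 + 27HC and 174 ± 5.86 CPM with 27HC (log2 fold change -0.61 ± 0.053, adjusted p = 1.55e-13). The members that did not pass, named after their values were seen, were Ddit4 (log2 fold change 0.07, adjusted p = 0.329) and Cebpb (0.24, adjusted p = 0.123).

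Chaperones of the endoplasmic reticulum rose by less. Of 18 members 14 rose, Calr fell, and the median was 0.20. Hspa5, the chaperone BiP, had 1868, 1957, 1925, 1784 and 1803 CPM with GSK2033 + 27HC, against 1085, 1113, 1079, 1083 and 1033 CPM with 27HC (log2 fold change 0.79 ± 0.023, adjusted p = 1.27e-30), with no overlap. Herpud1, of protein degradation in the endoplasmic reticulum, averaged 70.3 ± 1.55 CPM with GSK2033 + 27HC and 37.4 ± 1.96 CPM with 27HC (log2 fold change 0.91 ± 0.045, adjusted p = 6.55e-22). Hyou1 averaged 391 ± 4.76 CPM with GSK2033 + 27HC and 239 ± 7.94 CPM with 27HC (log2 fold change 0.71 ± 0.027, adjusted p = 3.73e-26). The co-chaperone gene Dnajb9 averaged 109.8 ± 4.14 CPM with GSK2033 + 27HC and 68.8 ± 2.65 CPM with 27HC (log2 fold change 0.68 ± 0.031, adjusted p = 1.04e-22).

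NRF2 targets, genes of defence against oxidants, rose in 13 of 17 cases and fell in 2, with a median of 0.29. Prdx1, peroxiredoxin 1, averaged 5235 ± 78.98 CPM with GSK2033 + 27HC and 2503 ± 92.7 CPM with 27HC (log2 fold change 1.06 ± 0.034, adjusted p = 8.63e-29). Srxn1, sulfiredoxin, averaged 353 ± 1.298 CPM with GSK2033 + 27HC and 215 ± 4.15 CPM with 27HC (log2 fold change 0.71 ± 0.022, adjusted p = 3.04e-29). Gclm, of glutathione synthesis, averaged 493 ± 14.2 CPM with GSK2033 + 27HC and 302 ± 6.91 CPM with 27HC (log2 fold change 0.71 ± 0.031, adjusted p = 1.33e-23). Slc7a11 belongs to this list as well. Ftl1, ferritin light chain, fell (log2 fold change -0.16 ± 0.031, adjusted p = 2.14e-05), and so did Tkt, transketolase, with overlapping groups (log2 fold change -0.12 ± 0.035, adjusted p = 0.00282). In the list of glycolysis and hypoxia 19 of 23 genes rose and 3 fell, with a median of 0.30. Slc16a3, the lactate exporter, averaged 226 ± 9.41 CPM with GSK2033 + 27HC and 120.5 ± 3.53 CPM with 27HC (log2 fold change 0.91 ± 0.045, adjusted p = 1.37e-21). The glucose transporter gene Slc2a1 averaged 174 ± 5.31 CPM with GSK2033 + 27HC and 112 ± 3.21 CPM with 27HC (log2 fold change 0.64 ± 0.035, adjusted p = 4.06e-20). Pfkfb3, which controls the rate of glycolysis, averaged 69.3 ± 2.59 CPM with GSK2033 + 27HC and 43.9 ± 0.8401 CPM with 27HC (log2 fold change 0.66 ± 0.039, adjusted p = 4.18e-19). Pgam1 averaged 1064 ± 14.97 CPM with GSK2033 + 27HC and 752 ± 5.85 CPM with 27HC (log2 fold change 0.501 ± 0.022, adjusted p = 1.33e-23). Vegfa, a growth factor of blood vessels, fell (log2 fold change -0.37 ± 0.054, adjusted p = 1.55e-07), as did Pkm, pyruvate kinase (log2 fold change -0.08 ± 0.021, adjusted p = 0.00298). Car9, a carbonic anhydrase, fell with an adjusted p of 0.0431, a call that was lost when some single libraries were left out.

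Complement and efferocytosis genes fell, 14 of 20 tested against 4 that rose, with a median of -0.40. C1qc, a chain of the complement component C1q, had 959, 890.1, 929, 940.0 and 940.0 CPM with GSK2033 + 27HC, against 1980, 1886, 2054, 2001 and 1906 CPM with 27HC (log2 fold change -1.08 ± 0.03, adjusted p = 7.06e-31). Every library with GSK2033 + 27HC lay below every library with 27HC. C1qa and C1qb fell with it, with log2 fold changes of -0.95 ± 0.034 and -1.12 ± 0.035. C3ar1, a receptor for a fragment of complement C3, averaged 592 ± 28.9 CPM with GSK2033 + 27HC and 1141 ± 23.4 CPM with 27HC (log2 fold change -0.95 ± 0.029, adjusted p = 2.58e-29). Fcgr2b, the inhibitory receptor for IgG, rose to 147 ± 5.51 CPM with GSK2033 + 27HC, against 59.2 ± 5.41 CPM with 27HC (log2 fold change 1.32 ± 0.049, adjusted p = 2.19e-26). Complement C3, the inhibitory receptor gene Cd300a and the integrin gene Itgax also rose, with log2 fold changes of 0.61 ± 0.063, 0.403 ± 0.048 and 0.497 ± 0.072.

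Markers of macrophage identity moved with these genes. Of 14 markers 12 fell and 1, Adgre1, rose by 0.13 with overlapping groups (adjusted p = 0.000698), and the median was -0.42. C1qa, C1qb, Mertk, Itgam and Fcgr1 are in this list as well as in the preceding one, so both lists share these values. Fcgr1 and Csf1r are given as examples chosen after their values were seen. Fcgr1, the high-affinity receptor for IgG, had 136, 124, 125, 136 and 129 CPM with GSK2033 + 27HC, against 209, 232, 201, 239 and 198 CPM with 27HC (log2 fold change -0.73 ± 0.043, adjusted p = 6.54e-19). Csf1r, the receptor for macrophage colony-stimulating factor, averaged 1816 ± 45.7 CPM with GSK2033 + 27HC and 2278 ± 65.7 CPM with 27HC (log2 fold change -0.33 ± 0.022, adjusted p = 2.69e-17). The summed level of the 14 ran from 15212 to 16838 CPM with GSK2033 + 27HC and from 19166 to 20543 CPM with 27HC. Its part in the fall of the complement list was not tested.

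Lipid-associated and scavenger genes fell more often than they rose, 13 against 6 of 23, with a median of -0.17. Trem2, a lipid receptor that is also in the alternative activation list, averaged 161 ± 6.33 CPM with GSK2033 + 27HC and 284 ± 14.3 CPM with 27HC (log2 fold change -0.82 ± 0.042, adjusted p = 4.16e-21). Plau, urokinase, averaged 97 ± 2.71 CPM with GSK2033 + 27HC and 238 ± 15.8 CPM with 27HC (log2 fold change -1.29 ± 0.046, adjusted p = 3.84e-27). Cathepsins fell by less, Ctsb with a log2 fold change of -0.35 ± 0.018 and Ctsl with -0.54 ± 0.032, as did Scarb2, a lysosomal membrane receptor (-0.45 ± 0.021). In the lysosome list 16 of 29 genes fell and 11 rose, with a median of -0.10. Gusb, beta-glucuronidase, averaged 445 ± 4.83 CPM with GSK2033 + 27HC and 659 ± 19.98 CPM with 27HC (log2 fold change -0.57 ± 0.024, adjusted p = 1.74e-24).

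PPAR targets split, with 9 of 17 rising and 5 falling. Cd36, a receptor for fatty acids and oxidised lipoproteins, had 1341, 1375, 1358, 1374 and 1391 CPM with GSK2033 + 27HC, against 3200, 3151, 3382, 3275 and 3317 CPM with 27HC (log2 fold change -1.25 ± 0.027, adjusted p = 2.17e-35). The nuclear receptor gene Pparg averaged 20.5 ± 0.431 CPM with GSK2033 + 27HC and 41.9 ± 2.84 CPM with 27HC (log2 fold change -1.03 ± 0.062, adjusted p = 8.11e-19). Ucp2, a mitochondrial carrier, averaged 396 ± 15.6 CPM with GSK2033 + 27HC and 671 ± 29.2 CPM with 27HC (log2 fold change -0.76 ± 0.033, adjusted p = 4.62e-24). The remaining members that fell were Acadm (-0.46 ± 0.084) and Hadha (-0.37 ± 0.051), enzymes of fatty acid oxidation. The fatty acid binding protein genes Fabp4 and Fabp5 rose. Fabp4 averaged 49.7 ± 1.95 CPM with GSK2033 + 27HC and 20.4 ± 2.26 CPM with 27HC (log2 fold change 1.29 ± 0.06, adjusted p = 1.36e-22). Fabp5 averaged 639 ± 18.8 CPM with GSK2033 + 27HC and 378 ± 17.6 CPM with 27HC (log2 fold change 0.76 ± 0.031, adjusted p = 1.46e-24).

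Of 14 tested genes of alternative activation 6 fell and 3 rose, with a median of -0.49. Trem2 and Pparg, given above, were 2 of the 6 that fell, and the others, named after their values were seen, were Il10, Stab1, Ccl17 and Cd163. Il10, an anti-inflammatory cytokine, had the lowest fold change of the list, with 0.421, 0.6996, 0.588, 0.365 and 0.315 CPM with GSK2033 + 27HC, against 2.81, 1.68, 2.78, 1.48 and 1.62 CPM with 27HC (log2 fold change -2.104 ± 0.22, adjusted p = 7.33e-11). Its level was low in both groups. The scavenger receptor gene Stab1 averaged 335 ± 49.3 CPM with GSK2033 + 27HC and 532 ± 45.95 CPM with 27HC (log2 fold change -0.67 ± 0.094, adjusted p = 1.14e-07). Ccl17, a chemokine, and Cd163, the haemoglobin scavenger receptor, had log2 fold changes of -1.03 ± 0.32 and -0.86 ± 0.25 at low levels, with overlapping groups. Il4ra, the interleukin 4 receptor, rose (log2 fold change 0.38 ± 0.029, adjusted p = 2.58e-15). The transcription factor gene Klf4 and Clec7a, the beta-glucan receptor, rose with log2 fold changes of 0.704 ± 0.068 and 0.17 ± 0.031. Of 15 tested genes by which myeloid cells restrain T cells 8 rose and 6 fell, with a median of 0.29, and Il10 had the lowest fold change here too. Ptges, which makes prostaglandin E2 in the step after Ptgs2, averaged 79.5 ± 6.304 CPM with GSK2033 + 27HC and 22.9 ± 3.38 CPM with 27HC (log2 fold change 1.8 ± 0.10, adjusted p = 2.41e-19). The inhibitory receptor gene Cd200r1 averaged 83.5 ± 3.56 CPM with GSK2033 + 27HC and 48.1 ± 2.62 CPM with 27HC (log2 fold change 0.79 ± 0.039, adjusted p = 5.72e-22). Vsir, the checkpoint ligand VISTA, fell to 164 ± 6.74 CPM with GSK2033 + 27HC, against 310.0 ± 12.1 CPM with 27HC (log2 fold change -0.92 ± 0.041, adjusted p = 3.36e-23).

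Cell cycle genes fell in 16 of 32 cases and rose in 1, with a median of -0.26. Pcna, the replication clamp, averaged 177 ± 4.03 CPM with GSK2033 + 27HC and 294 ± 13.02 CPM with 27HC (log2 fold change -0.73 ± 0.04, adjusted p = 3.59e-20). The helicase subunit genes Mcm6 and Mcm5 had log2 fold changes of -0.704 ± 0.039 and -0.56 ± 0.057. The gene that rose was Cdkn1a, the inhibitor p21, at 432 ± 11.7 CPM with GSK2033 + 27HC and 344 ± 2.89 CPM with 27HC (log2 fold change 0.33 ± 0.025, adjusted p = 3.58e-15). Of 25 immediate early genes and MAP kinase phosphatases 11 fell and 5 rose, with a median of -0.09. Zfp36, which shortens the life of cytokine mRNAs, averaged 94.3 ± 1.76 CPM with GSK2033 + 27HC and 188 ± 6.74 CPM with 27HC (log2 fold change -0.997 ± 0.037, adjusted p = 2.42e-26). The orphan receptor gene Nr4a1 averaged 1.98 ± 0.1799 CPM with GSK2033 + 27HC and 7.51 ± 0.3299 CPM with 27HC (log2 fold change -1.92 ± 0.10, adjusted p = 1.86e-20). Fos averaged 177 ± 5.72 CPM with GSK2033 + 27HC and 286 ± 14.2 CPM with 27HC (log2 fold change -0.69 ± 0.04, adjusted p = 1.95e-19). Ier3 (log2 fold change 0.86 ± 0.06, adjusted p = 2.3e-16), Klf4 and Jun (log2 fold change 0.097 ± 0.026, adjusted p = 0.00169) rose. Egr1 and Dusp4 rose with overlapping groups, and their calls at 0.0459 and 0.0249 were lost when some single libraries were left out.

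Estrogen-responsive genes, included because 27HC also binds the estrogen receptors, fell in 8 of 15 tested cases and rose in 4, with a median of -0.06. Igf1, insulin-like growth factor 1, averaged 424 ± 8.25 CPM with GSK2033 + 27HC and 864 ± 19.4 CPM with 27HC (log2 fold change -1.03 ± 0.033, adjusted p = 1.53e-28). Igfbp4, which binds it, averaged 124 ± 7.79 CPM with GSK2033 + 27HC and 243 ± 12.3 CPM with 27HC (log2 fold change -0.97 ± 0.047, adjusted p = 6.55e-22). Rara averaged 22.8 ± 1.58 CPM with GSK2033 + 27HC and 36.9 ± 2.297 CPM with 27HC (log2 fold change -0.696 ± 0.048, adjusted p = 1.12e-16). Cxcl12 averaged 78.98 ± 2.89 CPM with GSK2033 + 27HC and 105 ± 3.54 CPM with 27HC (log2 fold change -0.42 ± 0.036, adjusted p = 1.19e-13). Esr1 itself rose, and so did Stc2, Hspb8 and Xbp1, with log2 fold changes of 1.18 ± 0.27, 0.55 ± 0.10 and 0.097 ± 0.025, Xbp1 with overlapping groups. Of 5 tested genes of metal handling 2 rose and 1 fell. Mt2, a metallothionein, averaged 18.8 ± 1.83 CPM with GSK2033 + 27HC and 9.98 ± 0.321 CPM with 27HC (log2 fold change 0.91 ± 0.077, adjusted p = 1.01e-13). The zinc exporter gene Slc30a1 rose (0.22 ± 0.039), and the zinc importer gene Slc39a10 fell (-0.204 ± 0.044). Mtf1, the metal-sensing transcription factor, had overlapping groups (log2 fold change 0.12 ± 0.088, adjusted p = 0.308).

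Outside the lists, the 10 lowest fold changes also included genes of signalling and transport. Cd38, an enzyme that consumes NAD, had 4.12, 5.17, 4.62, 5.11 and 5.17 CPM with GSK2033 + 27HC, against 50.1, 56.3, 48.5, 51.4 and 40.5 CPM with 27HC (log2 fold change -3.35 ± 0.14, adjusted p = 1.67e-24). Dmpk, the protein kinase of myotonic dystrophy, had 21.4, 18.4, 16.6, 21.6 and 22.1 CPM with GSK2033 + 27HC, against 128, 116, 118, 112 and 116 CPM with 27HC (log2 fold change -2.56 ± 0.066, adjusted p = 4.28e-32). Abcb4, a phosphatidylcholine transporter, averaged 4.23 ± 0.227 CPM with GSK2033 + 27HC and 23.98 ± 1.81 CPM with 27HC (log2 fold change -2.502 ± 0.078, adjusted p = 3.38e-29). The groups stood apart by more than 3-fold for all of these. Abi3, an adaptor of actin remodelling, averaged 6.94 ± 0.667 CPM with GSK2033 + 27HC and 64.1 ± 3.94 CPM with 27HC (log2 fold change -3.21 ± 0.074, adjusted p = 4.25e-34). Gngt2, a G protein gamma subunit, averaged 11.3 ± 1.27 CPM with GSK2033 + 27HC and 61.8 ± 5.67 CPM with 27HC (log2 fold change -2.44 ± 0.072, adjusted p = 5.77e-30). Abi3 and Gngt2 overlap on opposite strands of chromosome 11, and whether the counting used strand is not stated, so their values are not separate for certain.

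The 10 highest fold changes included the 3 list members Slc7a11, Slfn1 and Lcn2, and otherwise mostly genes with few counts. H2-M2, a nonclassical MHC class I gene, had 81.7, 84.8, 82.2, 80.1 and 77.2 CPM with GSK2033 + 27HC, against 9.36, 10.8, 8.99, 10.5 and 8.703 CPM with 27HC (log2 fold change 3.07 ± 0.081, adjusted p = 7.4e-32). Hcar2, the receptor for niacin and beta-hydroxybutyrate, averaged 8.18 ± 0.584 CPM with GSK2033 + 27HC and 1.31 ± 0.244 CPM with 27HC (log2 fold change 2.63 ± 0.14, adjusted p = 2.55e-20). Cdsn, corneodesmosin, averaged 6.16 ± 0.694 CPM with GSK2033 + 27HC and 0.881 ± 0.178 CPM with 27HC (log2 fold change 2.798 ± 0.20, adjusted p = 3.08e-16). Cox6a2, the muscle form of a cytochrome c oxidase subunit, averaged 3.69 ± 0.185 CPM with GSK2033 + 27HC and 0.347 ± 0.163 CPM with 27HC (log2 fold change 3.38 ± 0.20, adjusted p = 6.99e-19), and it lies within Itgad on the opposite strand. Mcemp1 averaged 2.696 ± 0.493 CPM with GSK2033 + 27HC and 0.419 ± 0.146 CPM with 27HC. The GTPase gene Gem averaged 2.59 ± 0.469 CPM with GSK2033 + 27HC and 0.412 ± 0.193 CPM with 27HC. Gbp8, a guanylate-binding protein gene that overlaps its relatives and may share reads with them, averaged 2.19 ± 0.751 CPM with GSK2033 + 27HC and 0.3096 ± 0.171 CPM with 27HC. All of these except H2-M2 were under 10 CPM in both groups.

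Whether GSK2033 acted alike with and without 27HC was tested as an interaction, the log2 fold change of GSK2033 + 27HC over 27HC minus that of GSK2033 over Vehicle. GSK2033 alone changed 5025 genes (36.3%) against Vehicle, of which 2542 rose (18.4%) and 2483 fell (17.9%). The effect differed with 27HC for 2712 genes (19.6%), being higher for 1292 (9.34%) and lower for 1420 (10.3%). For LXR targets GSK2033 alone lowered 16 of 19 and raised 2, with a median of -0.76, and the interaction was lower for 15 and higher for 0. Abcg1 averaged 1.34 ± 0.236 CPM with GSK2033 and 41.2 ± 7.25 CPM with Vehicle (log2 fold change -4.94 ± 0.13), and its interaction was -3.92 ± 0.29 (adjusted p = 2.69e-14). Scd2 and Arl4c were among the genes with the smallest interaction p, at -2.11 ± 0.07 and -0.77 ± 0.03. With 27HC the starting level of most targets was higher, and the summed LXR targets ran from 5878 to 6652 CPM with GSK2033 + 27HC and from 6063 to 6770 CPM with GSK2033 alone. Most of that sum was Apoe, at 4389 ± 308 CPM with GSK2033 + 27HC and 4143 ± 259.7 CPM with GSK2033. Single targets differed more or less than the sum, from Arl4c at 94.2 ± 1.22 CPM with GSK2033 + 27HC and 95.3 ± 1.53 CPM with GSK2033 to Nr1h3 at 50.1 ± 1.03 CPM with GSK2033 + 27HC and 116 ± 2.302 CPM with GSK2033. This pair of groups was not tested.

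**Figure D4:**
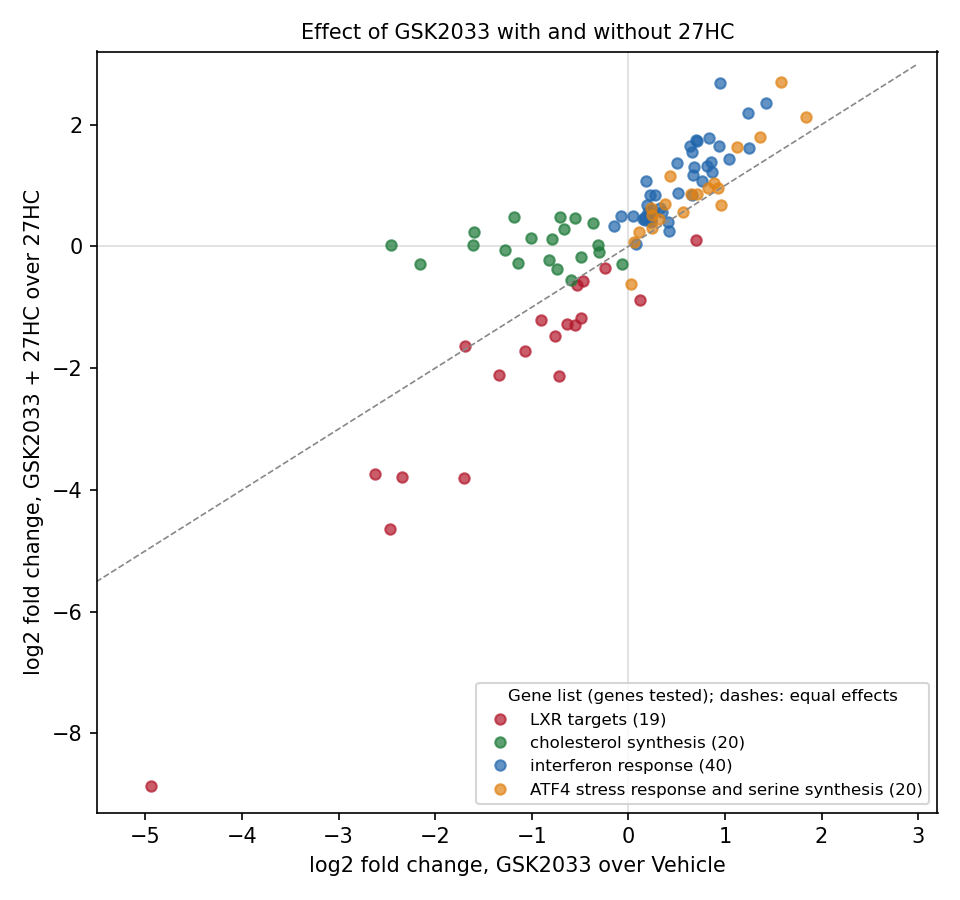
Log2 fold change of GSK2033 + 27HC over 27HC (y axis) against that of GSK2033 over Vehicle (x axis) for the tested members of 4 lists, with 1 point per gene and dashes where both are equal. Most LXR targets lie below the dashes in the lower left, with Nr1h3 and Cd5l right of 0 on the x axis, cholesterol synthesis genes lie near 0 on the y axis and below 0 on the x axis, and most interferon genes lie above the dashes on the right.

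Cholesterol synthesis genes had the opposite interaction. GSK2033 alone lowered 18 of 20 and raised 0 against Vehicle, with a median of -0.77. The interaction was higher for 17 and lower for 1, beside 9.34% and 10.3% of all genes. Sqle had 15.99, 16.2, 16.4, 16.5 and 15.1 CPM with GSK2033 alone, against 50.5, 46.5, 49.95, 45.5, 48.8 and 49.4 CPM with Vehicle (log2 fold change -1.59 ± 0.051, interaction 1.82 ± 0.076, adjusted p = 2.75e-23). Idi1 averaged 12.6 ± 0.662 CPM with GSK2033 and 56.3 ± 3.15 CPM with Vehicle (interaction 1.88 ± 0.083). Insig1 averaged 31.8 ± 1.26 CPM with GSK2033 and 70.6 ± 3.204 CPM with Vehicle (interaction 1.69 ± 0.051). For each of these genes the levels with GSK2033, with 27HC and with both lay below every Vehicle library. Outside the list, Txnip, a thioredoxin-binding protein, also had an interaction above 0, with 177 ± 2.105 CPM with GSK2033 + 27HC and 209 ± 1.699 CPM with 27HC. It averaged 222 ± 6.47 CPM with GSK2033 and 472 ± 7.92 CPM with Vehicle (interaction 0.85 ± 0.03, adjusted p = 1.09e-25).

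Interferon genes rose with GSK2033 alone in 35 of 40 cases and fell in 1, with a median of 0.46, and the interaction was higher for 33 and lower for 0. Ifit1 averaged 222 ± 9.07 CPM with GSK2033 and 125 ± 7.14 CPM with Vehicle (log2 fold change 0.83 ± 0.056, interaction 0.95 ± 0.088, adjusted p of the interaction = 8.62e-12). The 27HC libraries had a lower level of it than the Vehicle libraries, at 21.4 ± 3.64 CPM with 27HC. ATF4 genes rose with GSK2033 alone in 17 of 20 cases, and the interaction was higher for 9 and lower for 2, among them Slc7a11 (interaction 1.12 ± 0.11, adjusted p = 6.02e-11). Glycolysis genes rose in 13 of 23 cases with GSK2033 alone, with an interaction that was higher for 13 and lower for 0. The chemokine list had 0 higher and 10 lower, while Ccl3 had an interaction of -0.01 ± 0.11 (95% interval -0.23 to 0.21).

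Genes with the smallest interaction p in the lower direction fell more with 27HC than without it, or fell with 27HC and did not fall without it. Lgmn, the lysosomal protease legumain, had 460.1, 450.2, 466, 454 and 442 CPM with GSK2033 + 27HC, against 1135, 1124, 1158, 1153 and 1070 CPM with 27HC. It averaged 853 ± 28.4 CPM with GSK2033 and 1220 ± 38.9 CPM with Vehicle (interaction -0.79 ± 0.032). Id2, an inhibitor of helix-loop-helix transcription factors, had 230.5, 236, 247, 230.5 and 228 CPM with GSK2033 + 27HC, against 429, 442, 464, 444 and 415 CPM with 27HC. It averaged 204 ± 8.95 CPM with GSK2033 and 190.3 ± 6.65 CPM with Vehicle (log2 fold change 0.101 ± 0.03, interaction -1.01 ± 0.043, adjusted p of the interaction = 8.68e-23). B4galt6, which makes lactosylceramide, averaged 129 ± 4.18 CPM with GSK2033 + 27HC and 385 ± 7.65 CPM with 27HC (interaction -0.89 ± 0.036). Nr1h3 did not pass in the comparison of GSK2033 + 27HC against 27HC. It rose with GSK2033 alone, at 116 ± 2.302 CPM against 71.3 ± 3.33 CPM with Vehicle (log2 fold change 0.702 ± 0.058, interaction -0.6 ± 0.086).

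The LXR antagonist and the estrogen receptor antagonist were compared directly, both with 27HC. Between GSK2033 + 27HC and ICI + 27HC 4480 genes differed (32.4%), 2218 higher with GSK2033 + 27HC (16.0%) and 2262 lower (16.3%). This comparison shares the GSK2033 + 27HC libraries with the main one, so its values stand beside those above as a description. LXR targets were lower in 17 of 19 cases and higher in 1, with a median of -1.14 and a summed level of 6280 ± 317 CPM with GSK2033 + 27HC and 13550 ± 531 CPM with ICI + 27HC. Abcg1 averaged 0.737 ± 0.145 CPM with GSK2033 + 27HC and 330.3 ± 19.2 CPM with ICI + 27HC (log2 fold change -8.81 ± 0.12, adjusted p = 2.07e-41). Abca1 averaged 39.3 ± 2.68 CPM with GSK2033 + 27HC and 707 ± 31.7 CPM with ICI + 27HC (log2 fold change -4.17 ± 0.077, adjusted p = 1.47e-36). Interferon genes were higher with GSK2033 + 27HC in 39 of 40 cases and lower in 0, with a median of 1.03. Of the ATF4 list 6 were higher and 7 lower, with a median of 0.00 and a summed level of 2908 ± 38.01 CPM with GSK2033 + 27HC and 3328 ± 51.8 CPM with ICI + 27HC. Of the cholesterol synthesis list 2 were higher and 3 lower.

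Library composition moved with the groups. Mitochondrially encoded transcripts took 1.34% ± 0.114 of the counts with GSK2033 + 27HC and 1.90% ± 0.0981 with 27HC (SD, n = 5 each), with no overlap. The difference was -0.563 percentage points (two-sided exact permutation test, p = 0.00794, the smallest it can give). Of the 13 mitochondrially encoded genes 11 fell and 0 rose, mt-Cytb among them (log2 fold change -0.74 ± 0.067, adjusted p = 1.03e-12). The 10 most abundant genes took 11.7% ± 0.0722 of the counts with GSK2033 + 27HC and 11.04% ± 0.143 with 27HC (p = 0.00794 by the same exact test). Their part in the results above was not tested.

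Markers of other cell types were low or moved in both directions, except in the dendritic cell and erythroid lists. Of 10 neutrophil genes 2 were tested, Ly6g, Elane and Retnlg were at 0 in all 10 libraries, and the summed level was 30 to 37.8 CPM with GSK2033 + 27HC and 31.4 to 38.2 CPM with 27HC. S100a8 passed with overlapping groups at 1.99 ± 0.412 CPM with GSK2033 + 27HC and 1.31 ± 0.522 CPM with 27HC (log2 fold change 0.61 ± 0.20, adjusted p = 0.0126), a call that was lost when some single libraries were left out. Of 11 lymphocyte genes 3 were tested. Cd4 rose (0.51 ± 0.12), and Ighm fell at under 1 CPM (-1.65 ± 0.45). The sum ran from 11.4 to 13.4 CPM with GSK2033 + 27HC and from 8.56 to 11.8 CPM with 27HC. Of 9 dendritic cell genes 4 were tested and Bst2, an interferon-stimulated gene in that list too, and Itgax rose, while Xcr1 and Zbtb46 stayed near 1 CPM or below. None of the tested dendritic cell genes fell. The sum of the dendritic list ran from 448 to 469 CPM with GSK2033 + 27HC and from 277 to 325 CPM with 27HC. Stromal markers were present, at 3630 to 3956 CPM summed over the list with GSK2033 + 27HC and 3376 to 3821 CPM with 27HC. Of 9 tested 2 rose (Col1a2, 0.24 ± 0.064, and, with overlapping groups, Sparc, 0.11 ± 0.031) and 3 fell, among them Pdgfrb (log2 fold change -0.81 ± 0.056, adjusted p = 8.94e-17). Among 4 tested osteoclast genes Ctsk rose (0.63 ± 0.078) and Dcstamp fell (-2.26 ± 0.20), with summed levels of 81.7 to 85.6 CPM with GSK2033 + 27HC and 78.5 to 88.2 CPM with 27HC. Of the erythroid list only Tfrc was tested, and it fell (log2 fold change -0.23 ± 0.028, adjusted p = 2.29e-09), and no tested mast cell, basophil or progenitor gene passed (3 and 5 tested).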

How the data were processed

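Polyadenylated RNA of mouse bone marrow-derived macrophages was extracted on Qiagen columns and made into stranded libraries, and 46 were sequenced as single reads of 100 nt on 3 lanes of a NovaSeq 6000, per the labels. The authors used bcl2fastq 2.20 and kallisto 0.44.0 on GRCm38, per the submitters' processing notes. The deposited values are estimated counts per gene, not normalised; 11.7% of nonzero values were whole to within 0.02. Whether transcript length was corrected for, and which strand setting was used, is not given in the sources used here.

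Estimated counts were rounded, and the largest resulting shift in a library total was 133. A symbol was found in GENCODE M21 or the gene name tables for 24279 of the table's 24671 genes; 392 genes without one took 0.455% of counts. Identical libraries were 0, and the chi-square per degree of freedom between replicates ran from 3.91 to 12.3 over 95 pairs. It used genes with at least 40 counts summed over both libraries of a pair. After edgeR's filterByExpr 13838 genes remained. TMM scaling and edgeR 4.0.16 (R 4.3.3), with the robust quasi-likelihood test, were applied to all 46 libraries with 1 mean per group, which left 37 residual degrees of freedom and a biological coefficient of variation of 7.55%. Contrasts were adjusted by Benjamini-Hochberg at 0.05. The 10 libraries compared held 21218216 to 26567785 counts, so genes under 1 CPM rest on few counts and are less precise. For 5 libraries that received GW3965 the labels disagree on the second compound, and they served only the estimate of spread.

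Named genes are the 10 highest and 10 lowest by log2 fold change (called, mean at least 1 CPM, no overlap; predicted genes, pseudogenes and receptor segments passed over), up to 4 members of each list with the smallest p, all LXR targets, the receptor genes, the 5 smallest interaction p-values in each direction, and members that moved against their list where 5 or fewer. Some genes that this rule names are not reported here. The comparison, members and lists were chosen with earlier results of these data known. Promoters are from RefSeq. Tests were tried on simulated counts first. Alternatives were RLE size factors, no filter and a stricter filter on low counts, DESeq2 1.42.0, only the groups compared, a replicate block, rounding down, and leaving out each library.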

Additional observations from a re-analysis of the deposited data

Results flagged for a closer look

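The effect of GSK2033 differed with and without 27HC for 2712 genes by the test of the interaction.

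Of 382 checks of a single library against the 4 others of its group, 19 had a highest or lowest library apart from the rest by Dixon's criterion, and chance gives about 1 in 20. With GSK2033 + 27HC, replicate 2 was low for Igfbp4 (110.5 CPM), Xbp1 (209.4 CPM), Cd300a (166.0 CPM) and the share of the 10 most abundant genes (11.5%). Replicate 3 was high for Gem (3.40 CPM) and low for Tbl1x (61.5 CPM), and replicate 5 was high for Srebf1 (63.8 CPM) and Tlr3 (31.4 CPM) and low for Srxn1 (351.1 CPM). With 27HC, replicate 2 was high for Slc7a11 (49.2 CPM) and Ptgs2 (27.5 CPM) and low for Msmo1 (46.6 CPM) and Igfbp4 (221 CPM). Replicate 1 was high for Icam1 (107.7 CPM) and replicate 3 for Txnip (212.4 CPM). Replicate 5 was low for Gngt2 (52.1 CPM) and high for Slc39a10 (57.6 CPM), Pdgfrb (101.9 CPM) and Car9 (10.3 CPM).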

How the results depend on the processing

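The 12 counts of changed genes kept within 1.5 times of their values under 7 other ways of processing and when 1 library of the groups compared was left out. For GSK2033 + 27HC against 27HC the count ran from 5515 (no filter on low counts) to 6126 (replicate block), and from 5581 to 5757 when 1 of its 10 libraries was left out. The interaction count ran from 2322 to 2880 and from 2450 to 2813. The difference in the mitochondrial share ran from -0.605 to -0.527 percentage points when 1 library was left out, an alternative chosen after seeing the data. Of 52 counts of list members that rose or fell, 5 moved by over 1.5 times. Receptors and coregulators that rose went to 1 (2 as reported), MHC class I and endoplasmic reticulum chaperone genes that fell to 0 each (1 each as reported), NF-kB targets that fell to 3 (5 as reported), and immediate early genes that rose to 3 (5 as reported); these follow the calls of Ncoa6, Calr, Il1b, Nfkbiz, Egr1 and Dusp4, whose libraries are given below.

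Samples with the same replicate number deviated together only weakly, with correlations of 0.035, 0.015, 0.071, 0.052 and 0.041. Still, 4 of 5 libraries with GSK2033 + 27HC correlated best with their own number. This is a hint of pairing from the data and not a stated design, and the main model used no pairing. With the replicate block 3032 genes rose and 3094 fell.

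Calls of single genes named that changed side are given with the adjusted p under each alternative, all by edgeR unless DESeq2 is named; the cause was not tested beyond fewer samples or other genes tested. S100a8 lost its call without 27HC replicate 4 (0.0523), replicate 5 (0.0528), and with only these groups (0.0645). Acp5 passed without GSK2033 + 27HC replicate 5 (0.0364) and 27HC replicate 2 (0.0488), and with rounding down (0.0475). Apoc1 lost its call without GSK2033 + 27HC replicate 3 (0.0764), replicate 4 (0.05), replicate 5 (0.0518) and 27HC replicate 2 (0.0615), replicate 5 (0.051), and with no filter (0.0707). Ncoa6 lost its call without GSK2033 + 27HC replicate 1 (0.0608), replicate 2 (0.147) and 27HC replicate 2 (0.0624), replicate 3 (0.154), replicate 4 (0.0611), and with no filter (0.062), only these groups (0.0739). Calr lost its call without GSK2033 + 27HC replicate 1 (0.151), replicate 2 (0.0752), replicate 3 (0.0634), and with no filter (0.0837). H2-DMa lost its call without GSK2033 + 27HC replicate 2 (0.0516), replicate 4 (0.0644). Il1b lost its call without GSK2033 + 27HC replicate 4 (0.0665) and 27HC replicate 2 (0.0744), and with DESeq2 (0.0566). Nfkbiz lost its call without GSK2033 + 27HC replicate 1 (0.0722), replicate 4 (0.102), replicate 5 (0.112) and 27HC replicate 1 (0.132), replicate 2 (0.0682), replicate 4 (0.0789), and with no filter (0.0661), only these groups (0.12). Car9 lost its call without GSK2033 + 27HC replicate 2 (0.105), replicate 4 (0.0676), replicate 5 (0.166) and 27HC replicate 3 (0.0571), replicate 5 (0.182), and with no filter (0.0962), only these groups (0.0561), replicate block (0.0537), rounding down (0.0604). Egr1 lost its call without GSK2033 + 27HC replicate 4 (0.0859), replicate 5 (0.0538) and 27HC replicate 2 (0.0833), replicate 3 (0.218), replicate 5 (0.0512), and with no filter (0.0572), only these groups (0.0794). Dusp4 lost its call without 27HC replicate 3 (0.0677), replicate 4 (0.08). Zbtb46, which did not pass in any setting, changed sign when 1 library was left out, from -0.138 to 0.13. Cebpb passed without 27HC replicate 1 (0.0405). Hmgcs1 lost its call without 27HC replicate 1 (0.0516) and with only these groups (0.0771). The other genes named and tested kept their direction and their side of 0.05 for GSK2033 + 27HC against 27HC. Calls of single genes in the interaction and the other comparisons were not checked in this way. Counts limit the genes under 1 CPM, such as Apoc1, Ighm and Xcr1.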
